A study of Mus musculus with 28 samples.

Results

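The comparison set established induced pluripotent stem (iPS) cells against GFP-positive (GFP+) cells sorted on day 12 of reprogramming, which the labels class as intermediates. Its members were the 3 arrays titled as iPS cells of KH2-SC fibroblasts, replicates 1-3, 1-5 and 1-6, and the single GFP+ array, replicate M2. These 4 arrays were taken by their titles from the 28 arrays of the series, and they lay in a table of 24 arrays and 15 groups. Per the labels, all cells derived from fibroblasts of C57BL6/129 embryos at embryonic day 13.5. These carried a cassette of the reprogramming factors Oct4, Klf4, Sox2 and Myc (OKSM) and M2rtTA, its doxycycline-dependent activator, at the Rosa26 locus. Both alleles were present in 1 copy (het/het) or in 2 copies (ho/ho), and the labels do not say which applies to an array. Reprogramming took place with doxycycline in serum medium with LIF. The labels mark iPS and GFP+ cells alike, as negative for the fibroblast surface protein Thy1 and positive for the surface antigen SSEA1 and for GFP, a reporter whose gene they do not name. GFP+ cells were sorted by flow cytometry on day 12 of induction. iPS cultures were harvested before they were confluent and preplated for 45 minutes to remove feeder cells. The labels give no time after induction for iPS cells and do not say whether doxycycline had been withdrawn. Nor do they say whether the 3 iPS arrays came from separate lines or cultures, so the spread between them may be technical.

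Mouse fibroblasts become pluripotent when the reprogramming factors switch on the cell's own network of transcription factors, among them Oct4 (gene Pou5f1), Nanog and Sox2. A naive state, like that of the inner cell mass and of embryonic stem (ES) cells in LIF, is marked by factors such as Esrrb, Klf2, Klf5 and Tfcp2l1. A primed state, like that of the later epiblast, is marked by Otx2, Fgf5 and Zic2 and depends on Nodal and Activin signalling. In female cells the silent X chromosome, coated by the Xist RNA, becomes active again late in reprogramming. Many germline genes are silenced by promoter DNA methylation in fibroblasts, and some of them are transcribed at a low level in mouse ES cells. Imprinted genes, read from 1 parental copy, can lose expression in some mouse iPS lines, as described for the Dlk1-Dio3 cluster with Meg3 and Rian.

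All signals below are log2 values of the probe set that stands for a gene, and a difference is the mean of the iPS arrays minus the GFP+ array. The GFP+ array has no replicate. Its error was therefore taken from the replicated groups of the 24 arrays in a limma fit over 11807 genes, and 95% intervals of differences come from that fit. An exact permutation of 1 array against 3 cannot give a one-sided p below 0.25. A gene was called with a Benjamini-Hochberg adjusted p under 0.05, a difference of at least 2-fold and a GFP+ value outside the range of the iPS arrays. Samples are bulk RNA, so fewer cells of a type and less RNA per cell cannot be told apart.

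The 3 iPS arrays lay close together, with root mean square log2 differences of 0.286 to 0.388 between pairs over all genes. They lay 0.62 to 0.65 from the GFP+ array, 0.863 to 0.916 from the day 12 SSEA1+ array and 1.358 to 1.458 from the fibroblast (MEF) arrays. The GFP+ array in turn lay 0.625 from the day 12 SSEA1+ array and 1.341 to 1.349 from the MEF arrays. Thy1 stood at 6.87, 6.60 and 6.10 on iPS arrays 1-3, 1-5 and 1-6 and at 7.01 on the GFP+ array against a MEF mean of 11.80. Array 1-3 stood apart in fibroblast and epithelial genes. Its mean over 37 fibroblast genes was 7.39, against 6.97 and 6.68 on arrays 1-5 and 1-6, and over 29 epithelial genes 8.60, against 8.07 and 8.06. The 18S rRNA control gave 10.64 to 11.01 on the iPS arrays and 11.69 on the GFP+ array. The 3′ minus 5′ signal, which grows with RNA degradation, was 1.04 to 1.18 and 0.99 for Actb, and 0.58 to 0.66 and 0.73 for Gapdh. The part of these control values in the results was not tested.

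Of the 11807 genes, 471 (3.99%) were called higher and 383 (3.24%) lower in iPS cells than in GFP+ cells. The median fold was 2.61 among the higher genes and 2.57 among the lower, and the largest were 17.5 and 19.2. The GFP+ array lay outside the range of the iPS arrays for 8442 genes (71.5%), so that position alone marks little. The median difference over all genes was -0.07. Set against the MEF mean with a margin of 1 log2 unit, the higher genes did not follow a single course. GFP+ cells stood below MEFs for 180 of the 471, near them for 195 and above them for 96. In iPS cells 233 of the 471 stood above MEFs, 172 near them and 66 below, and 264 exceeded all 21 other arrays in every iPS array. For 150 of the 471 the GFP+ array was the lowest of all 24. Among the 383 lower genes, iPS cells stood below MEFs for 225 and below all 21 other arrays for 222, and for 77 the GFP+ array was the highest of all 24. Choosing genes by a gap between iPS and GFP+ arrays favours such extreme positions. Their counts over all genes are not given here, so they only describe the called genes. For 315 called genes the table held 485 further probe sets, of which 409 had the same sign, 191 were also called in that direction and 3 were called in the other.

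**Figure D1:**
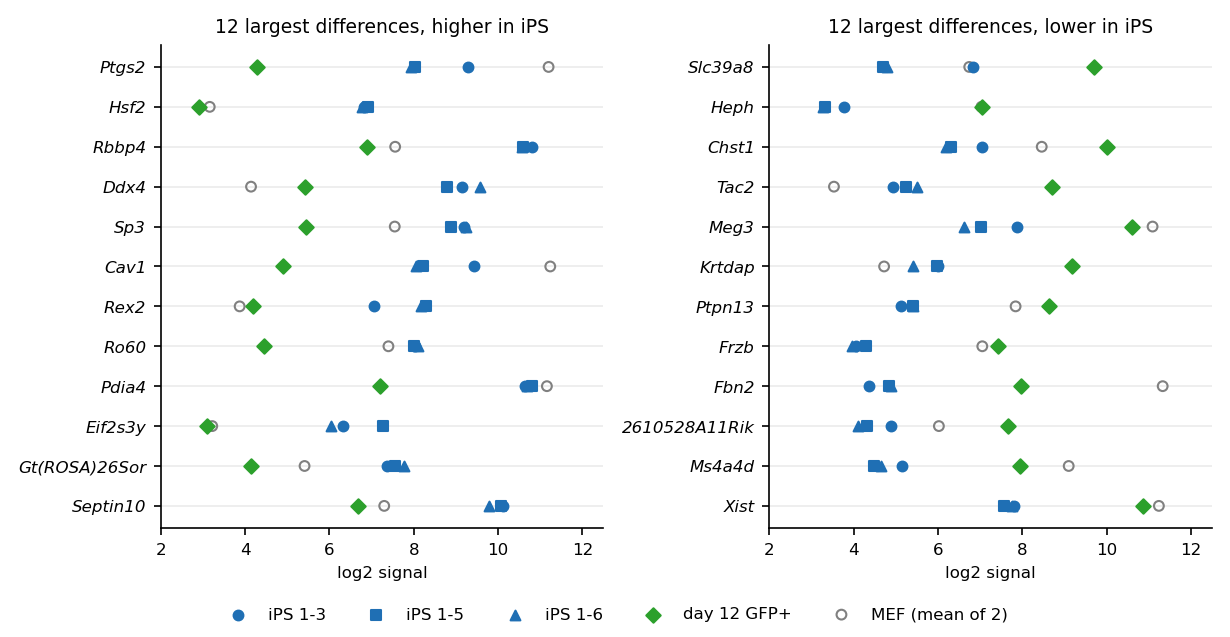
Log2 signal on each iPS array, on the day 12 GFP+ array and in MEFs (mean of 2) for the 12 called genes at the top of each direction. By the rule for a call, the GFP+ diamond lies below all 3 iPS arrays on the left and above them on the right. MEFs lie on either side.

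The 12 genes with the largest excess in iPS cells were led by Ptgs2, the inducible cyclooxygenase of prostaglandin synthesis. Ptgs2 stood at 9.29, 8.02 and 7.94 on iPS arrays 1-3, 1-5 and 1-6, against 4.29 on the GFP+ array. That is 17.5-fold higher in iPS cells (log2 difference 4.13 ± 0.54 SE, adjusted p = 0.000132). MEFs stood higher still, at 11.20, and a dimmer second probe set of Ptgs2 differed by 1.00 without a call. Cav1, the main protein of caveolae, had the same order: 9.42, 8.21 and 8.06 on the iPS arrays, 4.91 on the GFP+ array and 11.24 in MEFs. In other genes GFP+ cells stood within 1 log2 unit of MEFs. Hsf2, a heat shock transcription factor, stood at 6.81 to 6.92 on the iPS arrays, against 2.90 in GFP+ cells and 3.16 in MEFs (difference 3.94 ± 0.14 SE, adjusted p = 1.36e-09). Rbbp4, a histone-binding subunit of several chromatin complexes, reached 10.56 to 10.81 in iPS cells, against 6.89 in GFP+ cells and 7.56 in MEFs. Rex2 stood at 7.05, 8.28 and 8.18 on the iPS arrays, against 4.18 on the GFP+ array and 3.87 in MEFs (difference 3.65 ± 0.34 SE).

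The transcription factor gene Sp3 stood at 8.89 to 9.25 in iPS cells and 5.45 in GFP+ cells. Ro60, which encodes an RNA-binding autoantigen, had 8.01 to 8.10 in iPS cells and 4.45 in GFP+ cells. For Pdia4, a protein disulfide isomerase of the endoplasmic reticulum, the values were 10.64 to 10.81 and 7.21, and for the septin gene Septin10 9.79 to 10.13 and 6.67. In each of these 4 genes the iPS arrays lay close together and the GFP+ array was below every other array of the table. Gt(ROSA)26Sor, the noncoding transcript of the locus at which the labels place M2rtTA, was another gene of this kind. Its signal was 7.37, 7.56 and 7.76 on the iPS arrays, 4.13 on the GFP+ array and 5.41 in MEFs (difference 3.44 ± 0.22 SE, adjusted p = 3.81e-07). The germline gene Ddx4 and the Y-linked gene Eif2s3y, both described further on, complete the 12.

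The largest deficit in iPS cells was that of Slc39a8, a zinc and manganese importer. Slc39a8 stood at 6.83, 4.69 and 4.80 on iPS arrays 1-3, 1-5 and 1-6, against 9.71 on the GFP+ array (19.2-fold lower, difference -4.27 ± 0.57 SE, adjusted p = 0.000158). Without array 1-3 the fold was 31.2, and a second, dim probe set differed by only -0.47. Frzb, a secreted Wnt antagonist, stood at 3.97 to 4.30 in iPS cells, against 7.43 in GFP+ cells and 7.05 in MEFs. Heph, a copper-dependent ferroxidase, had 3.28 to 3.76 in iPS cells, against 7.04 in GFP+ cells and 7.03 in MEFs. In both genes GFP+ cells were thus near the fibroblast level and iPS cells were not. Chst1, a carbohydrate sulfotransferase, reached 10.02 in GFP+ cells, more than on any other array, against 6.19 to 7.05 in iPS cells. The phosphatase gene Ptpn13 was likewise highest of all on the GFP+ array, with 8.64, against 5.13 to 5.41 in iPS cells.

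Tac2, a tachykinin neuropeptide gene, and Krtdap, a gene of differentiating keratinocytes, behaved in another way. Tac2 stood at 4.94 to 5.49 in iPS cells and 8.70 in GFP+ cells, against 11.87 on the day 12 SSEA1+ array and 3.53 in MEFs. Krtdap stood at 5.41 to 5.99 in iPS cells and 9.18 in GFP+ cells, against 11.80 on the day 12 SSEA1+ array and 4.72 in MEFs. Both were thus high in sorted cells of day 12 and low at either end. Fbn2, a fibrillin of microfibrils, had 4.35 to 4.88 in iPS cells and 7.96 in GFP+ cells, against 11.33 in MEFs. For Ms4a4d the values were 4.49 to 5.14 in iPS cells, 7.94 in GFP+ cells and 9.10 in MEFs, and for 2610528A11Rik 4.11 to 4.89, 7.66 and 6.02. Meg3 and Xist, the remaining members of the 12, are described with their gene groups.

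Germline genes made up the list with the largest share of higher calls. Of 30 measured members of a list of 41, 14 were called higher in iPS cells, 46.7% against 3.99% of all genes, and 1 lower. The median difference of the list was 0.88, against -0.07 over all genes, and its mean level was 7.14 to 7.47 on the iPS arrays and 6.37 on the GFP+ array. Promoters of the 4 called members with the largest differences that the RefSeq promoter table holds (build GRCm38.p6) are shown because they can be compared for 2 short motifs. CACGTG is the E-box bound by Max and Mga, and TTCCCGC a motif bound by E2f6. In mouse ES cells these factors belong to a Polycomb complex that represses germline genes. Each sequence runs 5′ to 3′ on the gene's strand from 250 bases before to 50 bases after the start, with matches on either strand in capitals. A position counts bases from the start and is negative before it.
Ddx4 (chr13:112652261-112652560, minus strand): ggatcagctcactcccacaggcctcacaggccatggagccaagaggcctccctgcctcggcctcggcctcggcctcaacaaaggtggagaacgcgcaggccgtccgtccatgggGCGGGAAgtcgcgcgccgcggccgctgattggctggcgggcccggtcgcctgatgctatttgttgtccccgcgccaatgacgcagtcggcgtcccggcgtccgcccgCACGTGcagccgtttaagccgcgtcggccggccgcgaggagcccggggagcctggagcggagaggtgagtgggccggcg
Hormad1 (chr3:95559427-95559726, plus strand): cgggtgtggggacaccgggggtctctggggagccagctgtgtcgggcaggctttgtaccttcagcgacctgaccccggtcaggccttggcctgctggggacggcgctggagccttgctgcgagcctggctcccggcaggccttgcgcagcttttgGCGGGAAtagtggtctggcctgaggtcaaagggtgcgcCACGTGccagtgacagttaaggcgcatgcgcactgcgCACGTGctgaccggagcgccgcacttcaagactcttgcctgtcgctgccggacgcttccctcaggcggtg
Dazl (chr17:50293571-50293870, minus strand): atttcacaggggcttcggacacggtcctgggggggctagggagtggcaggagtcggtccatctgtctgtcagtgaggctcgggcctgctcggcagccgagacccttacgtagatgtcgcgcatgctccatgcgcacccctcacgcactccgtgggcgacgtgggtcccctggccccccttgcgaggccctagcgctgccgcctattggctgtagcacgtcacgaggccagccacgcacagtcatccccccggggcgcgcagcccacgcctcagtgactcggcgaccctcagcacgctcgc
Tex14 (chr11:87404815-87405114, plus strand): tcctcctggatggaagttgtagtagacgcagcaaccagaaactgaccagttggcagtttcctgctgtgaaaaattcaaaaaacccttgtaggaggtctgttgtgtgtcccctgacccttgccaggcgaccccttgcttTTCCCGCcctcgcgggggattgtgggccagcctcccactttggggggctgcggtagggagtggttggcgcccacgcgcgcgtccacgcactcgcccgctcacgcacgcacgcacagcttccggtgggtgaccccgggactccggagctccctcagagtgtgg
The Ddx4 window held CACGTG at -29 and TTCCCGC at -136. Hormad1 held CACGTG at -57 and at -20 and TTCCCGC at -95. Tex14 held TTCCCGC at -112 and no CACGTG, and the Dazl window held neither. No match overlapped another. Among the 11 called germline genes in the promoter table, 5 windows held CACGTG (45.5%), against 877 of 9430 windows of measured genes (9.3%) and 1957 of all 27025 (7.24%). TTCCCGC was found in 4 of the 11 (36.4%), against 7.16% of the windows of measured genes and 4.66% of all. The median number of CG pairs in a window was 20 in the 11, 18 in measured genes and 7 in all. These matches describe letters, not binding. Germline genes without a call were not compared, so the shares are not tied to the difference between iPS and GFP+ cells.

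**Figure D2:**
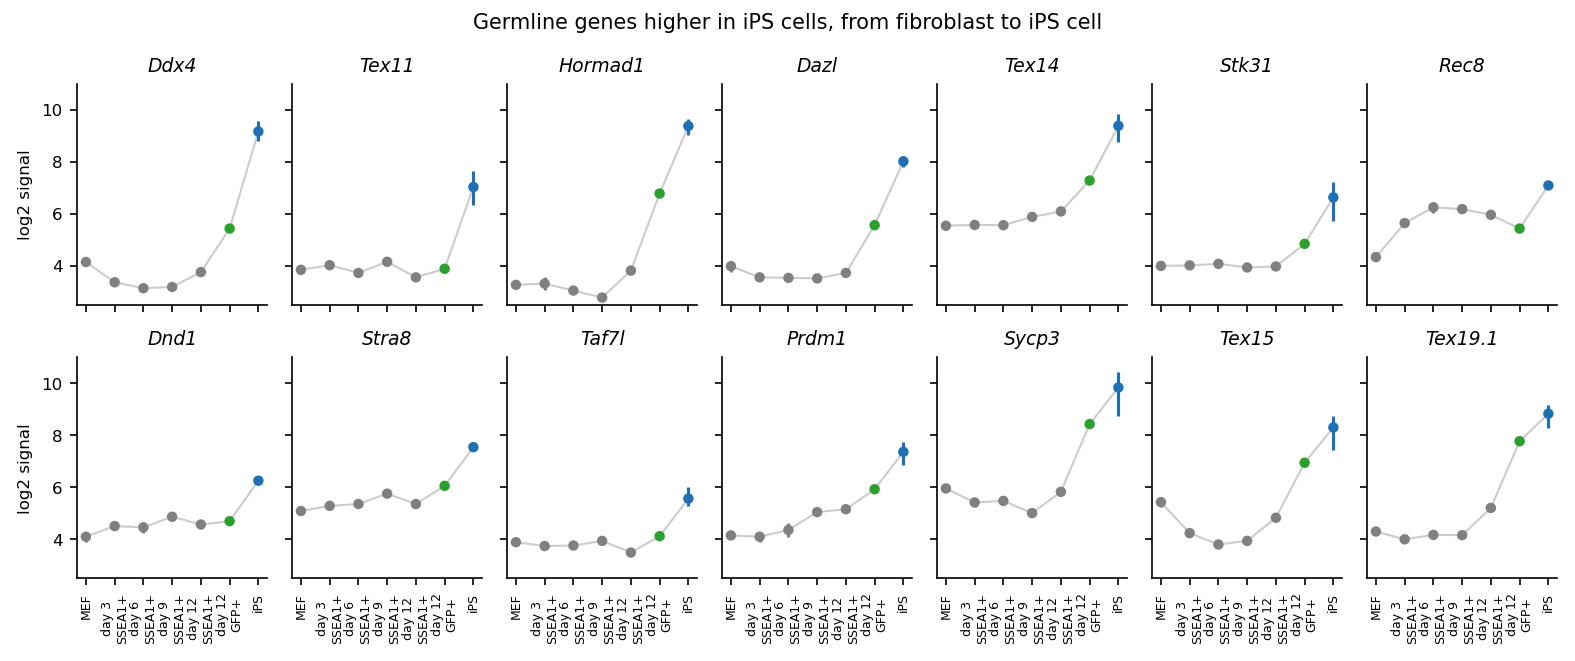
Log2 signal of the 14 germline genes called higher in iPS cells, in MEFs (2 arrays), in SSEA1+ cells of days 3 and 6 (2 arrays each), days 9 and 12 (1 array each), in day 12 GFP+ cells (1 array) and in iPS cells (3 arrays). Points are means and vertical lines the range of the arrays. Ddx4 and Hormad1 have means of at most 4.14 up to the day 12 SSEA1+ array, and all 14 genes have their highest mean in iPS cells.

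Ddx4, an RNA helicase of germ cells, stood at 9.14, 8.80 and 9.58 on iPS arrays 1-3, 1-5 and 1-6, against 5.43 on the GFP+ array (difference 3.75 ± 0.23 SE, adjusted p = 3.81e-07). On the day 12 SSEA1+ array it was 3.75 and in MEFs 4.14, so the GFP+ value lay between these and the iPS values. Hormad1, a protein of meiotic chromosome axes, had 9.02, 9.47 and 9.65 on the iPS arrays, 6.78 in GFP+ cells and 3.81 on the day 12 SSEA1+ array. Dazl, an RNA-binding protein needed for gametogenesis, had 7.82 to 8.21 in iPS cells and 5.56 in GFP+ cells. A second, dimmer probe set of Dazl differed by 0.94 and was not called. Tex11, an X-linked meiotic crossover gene, stood at 6.35, 7.08 and 7.64 on the iPS arrays, against 3.88 in GFP+ cells and 3.84 in MEFs. GFP+ cells thus stood at the MEF level for Tex11, but above it for Ddx4, Hormad1 and Dazl.

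Further genes of meiosis and germ cell development were Tex14, a protein of the bridges between germ cells, Rec8, the meiotic cohesin, and Stra8, which acts at meiotic entry. Tex14 had 8.75, 9.84 and 9.57 on the iPS arrays and 7.28 on the GFP+ array (difference 2.11 ± 0.31 SE). Rec8 had 6.98 to 7.25 in iPS cells and 5.43 in GFP+ cells, which was below the 5.96 of the day 12 SSEA1+ array. Stra8 had 7.39 to 7.66 in iPS cells and 6.05 in GFP+ cells. The other called members, Stk31, Dnd1, Taf7l, Prdm1, Sycp3, Tex15 and Tex19.1, differed by 1.06 to 1.79. Among them Dnd1 protects germ cells and Prdm1 specifies primordial germ cells, while Sycp3 belongs to the synaptonemal complex. Sycp3, Tex15 and Tex19.1 each lost the call when an iPS array was left out. The count of called members was then 12 to 13. The member lower in iPS cells was Rhox5, an X-linked homeobox gene, with 9.45 to 10.25 in iPS cells and 10.95 in GFP+ cells (difference -1.14 ± 0.32 SE). Without array 1-3 its difference was -0.95 and it was not called. Its neighbours Rhox6 and Rhox9 differed by -0.84 and -0.98 without a call. A filter that removed the dimmest 25% of genes left 16 of the 30 members, and 4 of those 16 were called higher.

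Pluripotency factors leaned higher in iPS cells, most of them by less than 2-fold. Of 27 measured members, 3 were called higher in iPS cells (11.1% against 3.99% of all genes) and 0 lower, with a median of 0.32. Differences were above 0 for 22 of the 27, against 5086 of all 11807 genes. At a limma adjusted p under 0.05 whatever the fold, 9 were higher and 0 lower, against 1079 and 1214 of all 11807 genes. An unadjusted limma p under 0.05 gave 11 and 0, but the count over all genes at that threshold is not given here. Klf5, a Kruppel-like factor of the naive network, stood at 7.03, 7.69 and 7.94 on iPS arrays 1-3, 1-5 and 1-6, against 5.50 in GFP+ cells and 4.43 in MEFs (difference 2.06 ± 0.29 SE, adjusted p = 0.00028). Klf2 stood at 10.69 to 11.01 in iPS cells and 9.20 in GFP+ cells, against 6.96 on the day 12 SSEA1+ array. Esrrb, an orphan nuclear receptor of the naive state, had 11.14 to 11.61 in iPS cells and 10.08 in GFP+ cells (difference 1.36 ± 0.33 SE). The GFP+ values of these 3 genes lay outside the iPS range, as the rule for a call requires.

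Pou5f1 stood at 11.91, 11.77 and 11.89 in iPS cells and 10.89 in GFP+ cells. The GFP+ value lay outside the iPS range, as it did for 21 of the 27 members and for 71.5% of all genes. The difference of 0.96 (95% interval 0.45 to 1.48, adjusted p = 0.0129) fell just short of 2-fold. Dppa3, Nr5a2, Zfp42, Klf4 and Tbx3 also had an adjusted p under 0.05 with differences of 0.56 to 0.95. Tfcp2l1, another naive factor, differed by 1.12 (interval 0.30 to 1.93) and missed the threshold with an adjusted p of 0.0543. Nanog did not separate the states, with 11.87, 11.49 and 11.99 in iPS cells and 11.49 in GFP+ cells, and a difference of 0.30 (interval -0.69 to 1.29). Sox2 had 10.66 to 11.48 in iPS cells and 10.99 in GFP+ cells, a difference of 0.15 (interval -0.91 to 1.21). Neither interval excludes a 2-fold difference. Lin28a, Utf1 and Dppa4 had narrower intervals, of -0.26 to 0.60, -0.52 to 0.56 and -0.18 to 0.66. Probe sets of Pou5f1, Sox2, Klf4 and Myc may also read transcripts of the cassette, which was not tested. In SSEA1+ cells of days 3 and 6, Pou5f1 had means of 5.68 and 5.42, against 5.22 in MEFs. Sox2 had 4.05 and 3.36 against 3.02, and Klf4 9.25 and 10.01 against 10.94. Only Myc was more than 2-fold above MEFs on both days, with 9.46 and 9.50. Myc, the fourth factor, was 5.13 to 5.62 in iPS cells and 8.21 in GFP+ cells, with 9.59 on the day 12 SSEA1+ array and 7.25 in MEFs. It was called lower in iPS cells (difference -2.85 ± 0.23 SE, 7.19-fold).

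**Figure D3:**
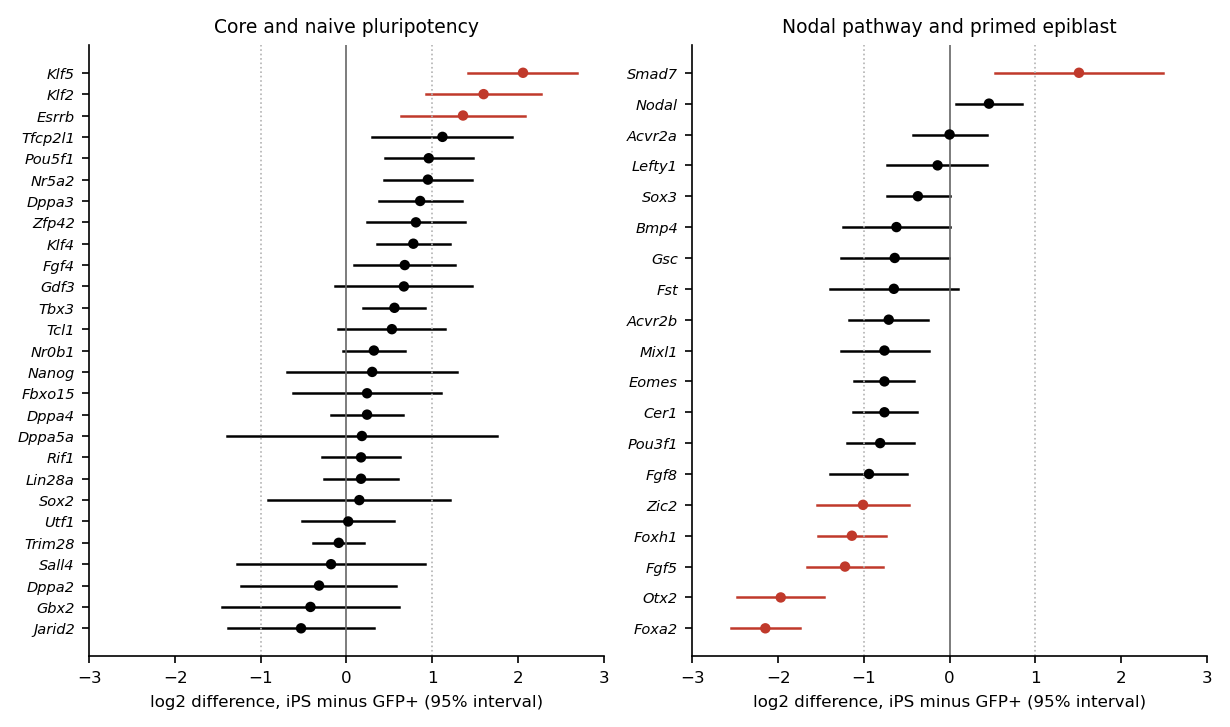
Log2 difference, iPS minus day 12 GFP+, with its 95% interval for 27 pluripotency genes (left) and 19 genes of the Nodal pathway and the primed epiblast (right). Red marks called genes and dotted lines a 2-fold difference. Differences on the left centre on 0.32 and on the right on -0.76.

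Genes of the primed epiblast and the Nodal pathway leaned the other way. Of 19 measured members, 5 were called lower in iPS cells (26.3% against 3.24% of all genes) and 1 higher, with a median of -0.76. Differences were above 0 for 3 of the 19, against 5086 of all 11807 genes. Otx2, a transcription factor of the primed epiblast, stood at 9.59, 9.51 and 9.88 on iPS arrays 1-3, 1-5 and 1-6, against 11.63 in GFP+ cells (difference -1.97 ± 0.23 SE, adjusted p = 6e-05). It stood at 9.09 on the day 12 SSEA1+ array and at 4.34 in MEFs, so that the GFP+ array was the highest of all 24. Foxa2, a factor of endoderm and the node, was 3.74 to 4.10 in iPS cells and 6.08 in GFP+ cells, again the highest of all, with 4.02 in MEFs. Fgf5, the standard marker of the epiblast after implantation, was dim throughout, with 4.40 to 5.04 in iPS cells and 5.87 in GFP+ cells. Zic2 had 8.49 to 8.89 in iPS cells and 9.66 in GFP+ cells. The call of Zic2 was lost without array 1-3 or 1-6, with differences of -0.93 and -0.97.

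Foxh1, the DNA-binding partner of Smads in Nodal signalling, had 8.73 to 8.96 in iPS cells and 9.99 in GFP+ cells (difference -1.14 ± 0.19 SE). Its other probe sets differed by -0.13 and -0.22 and were not called. The ligand gene Nodal itself was 10.33 to 10.41 in iPS cells and 9.91 in GFP+ cells, a difference of 0.46 (interval 0.08 to 0.84, adjusted p = 0.0813). The Nodal antagonist gene Lefty1 differed by -0.14 (interval -0.73 to 0.44). Smad7, an inhibitory Smad, was the member called higher, with 10.07 to 10.36 in iPS cells and 8.68 in GFP+ cells, and it lost the call without array 1-5 (difference 1.43). Eomes, Cer1, Mixl1 and Pou3f1 differed by -0.76 to -0.81 and Fgf8 by -0.94, all with an adjusted p under 0.05 but less than 2-fold.

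Imprinted genes were the list with the largest share of lower calls. Of 25 measured members, 8 were called lower in iPS cells (32% against 3.24% of all genes) and 2 higher, with a median of -0.53. The maternally expressed noncoding genes of the Dlk1-Dio3 cluster led them. Meg3 stood at 7.87, 7.01 and 6.61 on iPS arrays 1-3, 1-5 and 1-6, against 10.60 in GFP+ cells, 10.96 on the day 12 SSEA1+ array and 11.09 in MEFs. The difference was -3.44 ± 0.36 (SE, adjusted p = 1.93e-05), and the other 3 probe sets of Meg3 differed by -2.02 to -3.56. Rian stood at 8.03, 8.27 and 7.32 on the iPS arrays and 10.28 in GFP+ cells, and its other probe sets differed by -3.21 and -4.45. GFP+ cells were thus near the fibroblast level for Meg3 and somewhat below it for Rian (MEFs 11.47), while each iPS array was below both. The paternally expressed Dlk1 of the same cluster had 5.20 to 6.05 in iPS cells and 6.44 in GFP+ cells and was not called (difference -0.84, interval -1.92 to 0.23), against 11.59 in MEFs.

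Members of the Prader-Willi region, all read from the paternal copy, formed another part of the list. Magel2 had 4.87 to 5.16 in iPS cells and 6.51 in GFP+ cells, Ndn 6.87 to 7.35 and 8.23, and Snrpn 10.60 to 10.93 and 11.84. Their differences were -1.53, -1.15 and -1.11. Peg3, a zinc finger gene, differed by -1.02 and lost the call without array 1-6 (difference -0.94). Calcr, the calcitonin receptor gene, and Dcn, which encodes the matrix proteoglycan decorin, differed by -1.25 and -2.29. Phlda2, a maternally expressed growth restrictor of the placenta, went the other way, with 8.84 to 9.49 in iPS cells and 7.75 in GFP+ cells. So did Slc38a4, an amino acid transporter read from the paternal copy, with 10.94 to 11.31 in iPS cells and 9.68 in GFP+ cells. Both directions thus occurred among maternally and among paternally expressed genes. The lower calls also differed in their relation to MEFs. Magel2 and Calcr had iPS means of 4.99 and 3.49, near the MEF means of 4.95 and 3.42. Snrpn had an iPS mean of 10.74, near the 10.85 of the day 12 SSEA1+ array and above 9.11 in MEFs. For Magel2, Calcr and Snrpn the GFP+ array was the highest of all arrays. Ndn, Peg3 and Dcn had iPS means of 7.07, 7.93 and 5.4, below the MEF means of 10.33, 9.23 and 11.83.

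The X chromosome had a larger share of lower calls than any autosome. Of its 394 measured genes, 39 were called lower in iPS cells (9.9%) and 11 higher (2.79%). On single autosomes the share called lower was 1.91% to 4.77%, and over all 11383 autosomal genes 3.01%. The median difference was -0.243 on the X and -0.067 on autosomes. Xist, which coats the silent X, stood at 7.81, 7.57 and 7.76 on iPS arrays 1-3, 1-5 and 1-6, against 10.87 in GFP+ cells, 11.42 on the day 12 SSEA1+ array and 11.24 in MEFs. Its difference was -3.16 ± 0.19 (SE, adjusted p = 2.72e-07), and the other 2 probe sets gave -4.33 and -4.74. The Y-linked translation factor gene Eif2s3y stood at 6.32, 7.26 and 6.04 on the iPS arrays and at 3.10 in GFP+ cells. On the 20 other arrays Eif2s3y lay between 2.97 and 3.28. The remaining 10 of 11 measured Y-linked genes were not called. Kdm5d had 3.93 to 4.35 in iPS cells and 4.46 in GFP+ cells (difference -0.35). Uty had 3.57 to 3.66 and 3.56 (0.07), and Usp9y 4.11 to 4.44 and 4.76 (-0.48). These signals were dim in both states, so the missing calls say little about expression of these genes. The brightest of the 10, Sry and Zfy2, had iPS means of 6.42 and 5.74 and GFP+ values of 6.70 and 5.58. The sex of the embryos is not given in the labels, and the part of sex or of feeder cells in the X-linked results was not tested.

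Relative to the median of autosomal genes, and set against MEFs, X-linked genes had medians of -0.112 to -0.071 in iPS cells and 0.013 in GFP+ cells. The 20 other arrays lay between -0.113 and 0.017, so the iPS values did not leave that range. The low end was set by the day 6 Thy1+ array of replicate M2. Without it 19 arrays lay between -0.08 and 0.017, and iPS arrays 1-3 and 1-6 were below them. X-linked genes other than Xist with large deficits were Heph, described above, Xlr4b, Pim2, Rbmx and Efnb1. Pim2, a survival kinase, stood at 7.57 to 8.09 in iPS cells and 10.41 in GFP+ cells, against 5.59 in MEFs. Xlr4b, of an X-linked lymphocyte-regulated family, stood at 3.46 to 3.86 in iPS cells and 6.47 in GFP+ cells. Rbmx, an RNA-binding splicing regulator, had 8.08 to 8.91 in iPS cells and 10.89 in GFP+ cells, close to the 10.86 of the day 12 SSEA1+ array. Efnb1, a membrane ephrin, had 5.59 to 6.38 in iPS cells and 8.19 in GFP+ cells. Of the 11 X-linked genes higher in iPS cells, Tex11 and Taf7l belong to the germline list, and Mid1, a ubiquitin ligase gene, differed by 2.60 (7.86 to 8.41 in iPS cells and 5.45 in GFP+ cells).

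**Figure D4:**
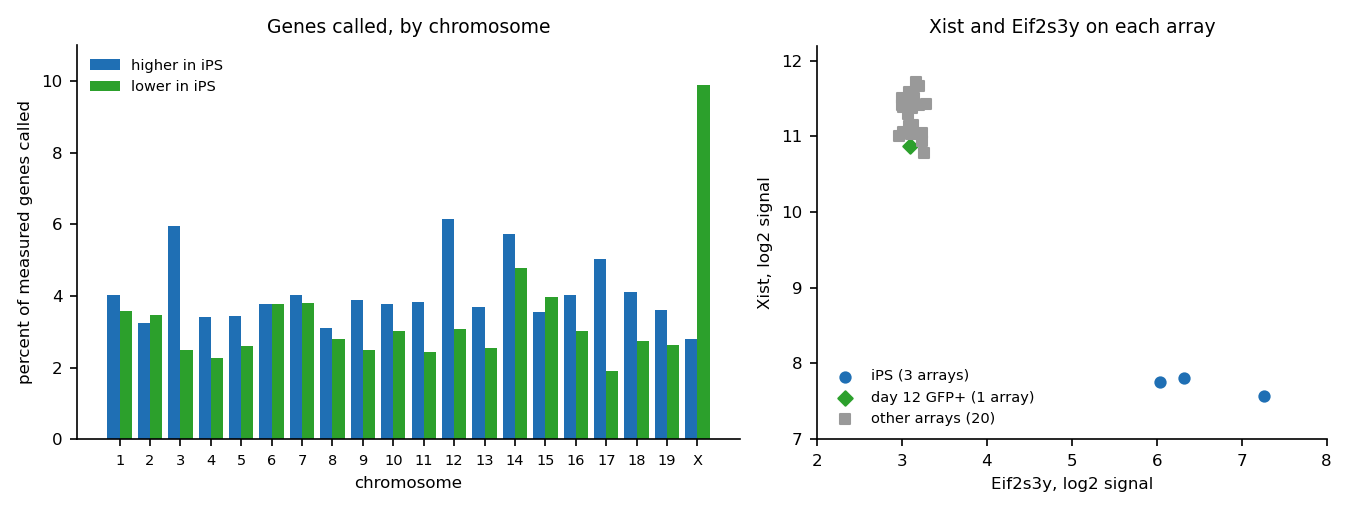
Left, percent of measured genes called higher or lower in iPS cells than in day 12 GFP+ cells, by chromosome. Right, log2 signals of Xist and Eif2s3y on each of the 24 arrays. The X has 9.9% lower calls, against at most 4.77% on an autosome, and only the iPS arrays combine low Xist with high Eif2s3y.

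Surface markers used to stage reprogramming were split. Of 16 measured, 5 were called higher in iPS cells (31.2% against 3.99% of all genes) and 3 lower (18.8% against 3.24%), with a median of 0.13. Fut9, whose fucosyltransferase product builds the SSEA1 antigen, measured 7.03, 7.93 and 7.63 on iPS arrays 1-3, 1-5 and 1-6, against 4.73 in GFP+ cells (difference 2.80 ± 0.27 SE, adjusted p = 9e-06). Its level on the day 12 SSEA1+ array was 6.41, so GFP+ cells stood below it although both were sorted as SSEA1-positive. Cd9, a tetraspanin, had 11.29 to 11.70 in iPS cells and 8.99 in GFP+ cells, the lowest of all 24 arrays, with 11.13 in MEFs. Kit, the stem cell factor receptor gene, had 7.68 to 7.95 in iPS cells and 5.72 in GFP+ cells. Icam1 and Pecam1, both adhesion molecules, were higher by 1.65 and 1.59. Epcam and Cdh1 did not pass the test, with differences of 0.35 (interval -0.26 to 0.96) and 0.34 (interval -0.26 to 0.94). Among the lower markers, Podxl, a sialomucin, stood at 9.26 to 9.87 in iPS cells and 11.65 in GFP+ cells, but a second, dim probe set differed by -0.01. Cd34, another sialomucin, stood at 4.27 to 5.16 in iPS cells and 6.62 in GFP+ cells, against 9.56 on the day 12 SSEA1+ array. Cd24a differed by -1.14 and lost the call without array 1-5 (difference -0.97).

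Fibroblast genes had a far lower mean in both cell states than in MEFs and did not move together. Of 37 measured members, 3 were called higher in iPS cells (Col5a1, Lox and S100a4) and 3 lower (Dcn, Ogn and Zeb2), 8.11% each way against 3.99% and 3.24% of all genes, with a median of 0.12. Without array 1-3 the counts were 1 and 5 and the median -0.20, and without array 1-6 they were 6 and 3. The mean of the list was 7.39, 6.97 and 6.68 on iPS arrays 1-3, 1-5 and 1-6 and 6.96 in GFP+ cells, against 11.27 and 11.34 on the MEF arrays. S100a4, a calcium-binding protein of fibroblasts, stood at 9.53, 8.91 and 8.31 on the iPS arrays, against 6.31 in GFP+ cells and 12.07 in MEFs. Lox, a collagen cross-linking enzyme, stood at 10.21, 9.30 and 8.85 against 8.11, and lost the call without array 1-3 (difference 0.97), as did Col5a1 (0.88). Dcn stood at 6.15, 4.93 and 5.13 against 7.70, and Zeb2, a repressor of the epithelial state, at 4.50 to 4.81 against 5.93. Levels within the list ranged widely. Vim, the intermediate filament vimentin, was 12.24 to 12.70 in iPS cells and 12.15 in GFP+ cells, against 13.16 in MEFs, and Sparc, a matrix protein, 11.54 to 12.19 and 11.45, against 13.24. At the low end, Tnmd was 3.94 to 4.24 in iPS cells and 3.88 in GFP+ cells, and Lum 3.95 to 4.38 and 3.72, against 11.15 and 9.59 in MEFs.

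The 66 genes that were higher in iPS cells than in GFP+ cells and yet at least 2-fold below MEFs included Ptgs2, Cav1, Cav2 and Pdgfc. Cav2 and Pdgfc are named here after their values were seen. Their mean level was 8.02, 7.69 and 7.54 on iPS arrays 1-3, 1-5 and 1-6, against 6.14 in GFP+ cells and 7.12 on the day 12 SSEA1+ array, and 10.0 and 9.99 on the MEF arrays. The order of GFP+ cells below iPS cells below MEFs was set by the choice of these 66 genes. Array 1-3 was the highest of the iPS arrays for 44 of the 66, against 193 of all 471 higher genes. The GFP+ array was the lowest of all 24 for 52, against 150 of the 471, which follows in part from the same choice. Without array 1-3, 55 of the 66 were still called higher. Cav2, the partner of Cav1, stood at 7.76, 6.72 and 6.80 on the iPS arrays and 4.20 in GFP+ cells, and Pdgfc, a growth factor gene, at 9.12, 9.78 and 9.54 and 6.89. The part of remaining feeder cells in these values was not tested.

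**Figure D5:**
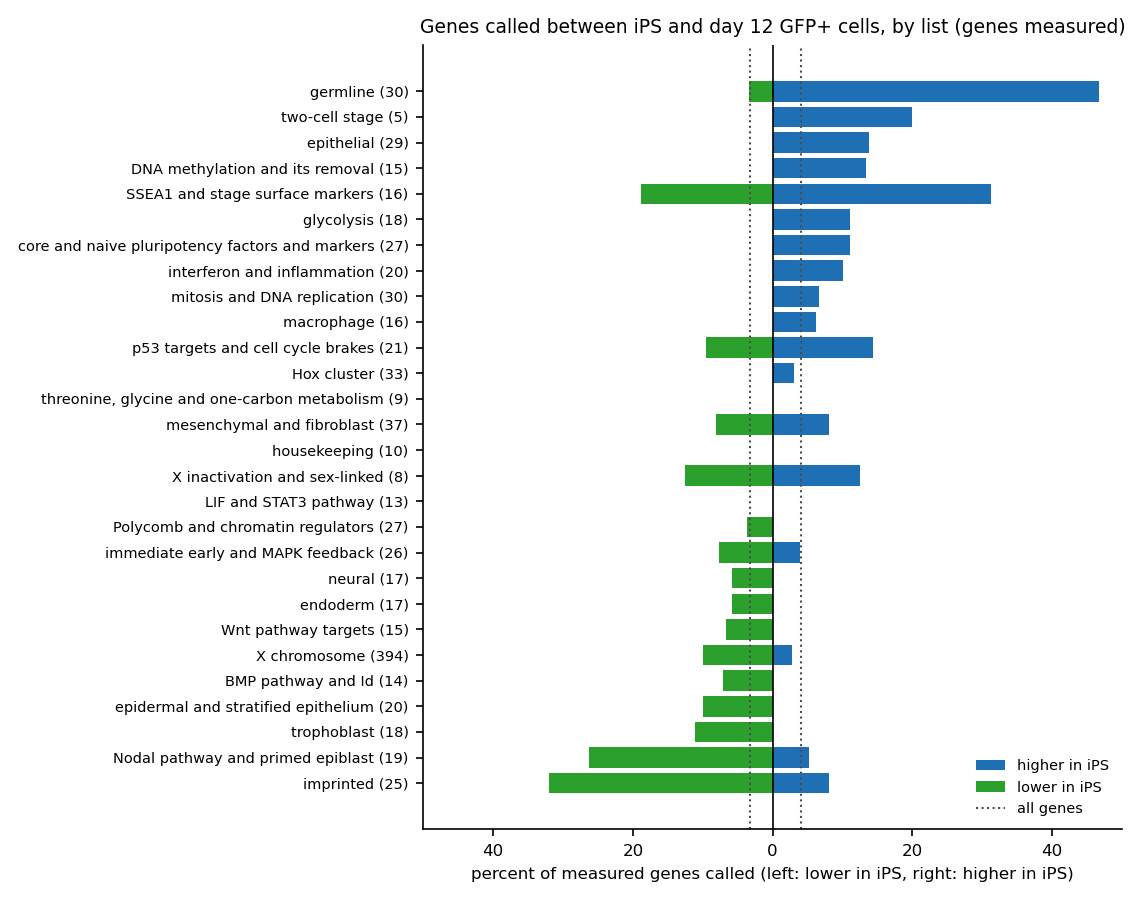
Percent of the measured genes of each list called higher (right) or lower (left) in iPS cells than in day 12 GFP+ cells, with the number of genes measured in parentheses and dotted lines at the shares of all genes (3.99% and 3.24%). Germline genes stand out on the right with 46.7%, imprinted genes on the left with 32%.

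Other gene groups are given by their counts, beside 3.99% higher and 3.24% lower over all genes. Of 29 epithelial genes, 4 were called higher in iPS cells (13.8%) and 0 lower, and without array 1-3 another 2 were called lower. They were the tight junction genes Ocln (7.15 to 7.69 in iPS cells, 4.86 in GFP+ cells) and Cldn4, the trafficking gene Mal2 and the desmosomal cadherin gene Dsg2. Of 20 genes of stratified epithelium, 2 were called lower (10%) and 0 higher. Aldh3a1, an aldehyde dehydrogenase of corneal epithelium, stood at 5.56 to 6.24 in iPS cells and 8.41 in GFP+ cells, against 11.26 on the day 12 SSEA1+ array. Pkp1, a desmosomal plaque gene, stood at 4.46 to 4.74 in iPS cells and 6.47 in GFP+ cells. As with Krtdap, both levels were higher on the day 12 SSEA1+ array than in either state. Of 26 immediate early genes, Myc and Jun were lower (7.69%) and Ier3 higher (3.85%). A second probe set of Jun differed by -0.90 and was not called. Of 30 genes of mitosis and replication, the kinesin gene Kif11 and the ribonucleotide reductase gene Rrm2 were higher (6.67%), by 1.46 and 1.07. The median of this list was 0.23, and 26 of 30 differences were above 0, against 5086 of all 11807 genes.

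Among 21 genes listed as p53 targets and cell cycle brakes, Plk2, Btg2 and Cdkn2a were higher (14.3%) and Ccnd2 and Igfbp3 lower (9.52%) in iPS cells. Cdkn2a lost its call without array 1-3 (difference 0.93) or 1-5 (0.96), and Btg2 with the mean of its probe sets (0.79), the second of which differed by 0.23. Ccnd2, though on that list, encodes cyclin D2, which promotes the cell cycle and is not a brake. Ccnd2 stood at 8.04 to 8.76 in iPS cells and 10.26 in GFP+ cells, against 12.42 on the day 12 SSEA1+ array. All 5 of its other probe sets were called lower too. Without array 1-6 the higher calls of that list were 5. Of 15 genes of DNA methylation and its removal, Apobec1 and Gadd45b were higher (13.3%), by 1.43 and 1.26. The methyltransferase genes Dnmt3a and Dnmt3b differed by -0.60 and -0.85 and were not called. Of 18 glycolysis genes, Hk1 and Ldhb were higher (11.1%), by 1.54 and 1.53. No gene was called by limma among 13 of the LIF and STAT3 pathway, 9 of threonine, glycine and one-carbon metabolism and 10 housekeeping genes, whose medians were 0.16, 0.11 and -0.06. At an unadjusted limma p under 0.05 these lists held 6, 4 and 2 genes, and the count over all genes at that threshold is not given here. Of 33 Hox genes 1 was called, Hoxc13, higher by 2.04 (3.03%). The list as a whole had a median of -0.38 with 8 of 33 differences above 0, against 5086 of all 11807 genes. At a limma adjusted p under 0.05 whatever the fold, 2 Hox genes were higher and 6 lower, against 1079 and 1214 of all 11807 genes.

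Markers of other lineages are set against the same shares of all genes, 3.99% higher and 3.24% lower. Of 18 trophoblast genes, Fgfr2, a fibroblast growth factor receptor, and Elf5, a trophoblast transcription factor, were lower in iPS cells (11.1%), with log2 differences of -1.79 and -1.34. Their second probe sets differed by -0.53 and -0.43 and were not called. The number of lower trophoblast genes was 4 without array 1-3 and 1 without array 1-6. Of 17 endoderm genes, Foxa2 was lower (5.88%), and without array 1-3 there were 3. Ncam1, a neural adhesion molecule, was the called gene among 17 neural markers (5.88% lower), with 8.86 to 9.41 in iPS cells and 10.32 in GFP+ cells, and the call was lost without array 1-3 (difference -0.96). Its probe sets disagreed: 1 other was called higher (1.01), 4 others differed by -0.15 to -0.26, and their mean gave -0.15 without a call. Among 15 Wnt targets the antagonist gene Dkk1 was lower (6.67%), with 4.57 to 4.89 in iPS cells and 5.77 in GFP+ cells. It lost the call without array 1-5 (difference -0.95) and after quantile scaling (-0.87). Among 14 genes of the BMP pathway Smad5 was lower (7.14%), with 6.17 to 7.03 in iPS cells and 7.84 in GFP+ cells. Its other probe set differed by 0.42, and the mean of both (-0.44) was not called. Without array 1-3 both of these lists had 2 lower genes. Bmi1, a Polycomb subunit, was the called gene among 27 chromatin regulators (3.70% lower), with 7.16 to 7.65 in iPS cells and 8.57 in GFP+ cells. Leaving out an iPS array gave 0 to 2 higher and 1 to 2 lower genes in that list. Usp17la was higher among the 5 measured genes of the early cleavage stage, by 1.74, and Ptgs2 and Icam1 among 20 genes of interferon and inflammation (10%).

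Of 16 macrophage markers, Cd68 was higher (6.25%), with 8.65, 8.33 and 7.68 on iPS arrays 1-3, 1-5 and 1-6 and 7.11 in GFP+ cells. It lost the call without array 1-3 or 1-5, with differences of 0.90 and 1.06. Ptprc, which encodes the pan-leukocyte antigen CD45, stood at 3.10 to 3.20 in iPS cells and 2.68 in GFP+ cells, and the mean of the list was 4.51 to 4.83 and 4.69. Cd68 and Laptm5 (7.66 to 8.32 in iPS cells and 7.87 in GFP+ cells) were the highest of the list. The part of macrophages in these values was not tested.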

How the data were processed

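Total RNA was hybridised to 1-colour expression arrays. The authors deposited log2 signals per probe set. The submitters' processing notes name RMA, without a version, as the tool behind them. RMA corrects background, makes the distributions of arrays alike and summarises probes. A table of 24 arrays with medians of 6.835 to 6.988 was used as deposited. The 4 other arrays, of another array design, were not used here. Of 22716 probe sets, 18003 named 1 gene, 287 several and 4426 none in the platform annotation. The probe set with the highest mean over all arrays stood for each of 11807 genes. limma 3.58.1 in R 4.3.3 was fitted to 15 group means (lmFit and eBayes, 9 residual and 4.68 prior degrees of freedom), with Benjamini-Hochberg adjustment over all genes. The number of arrays limits the precision, and the fit assumes that the lone GFP+ array varies like the replicated groups. The test was also run on simulated data, in which the GFP+ array was given the spread of the replicated groups. That run therefore cannot check this assumption. Tables and figures were made with Python 3.11.15, pandas 2.3.3, numpy 2.4.6 and matplotlib 3.10.9. No pair of arrays held identical values.

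Named genes are the 12 called genes of largest difference in each direction and members of 28 gene lists, including the X chromosome. Members and lists were chosen with earlier results of these data known. The 13 alternatives varied the scaling, the filter on dim genes, the probe set rule, the prior, the arrays fitted, the replicate block, the fold minimum and the range rule. Replicate names M2 and M3 are shared by 7 groups. Deviations of same-named arrays correlated at -0.207 to 0.214 over 21 pairs of groups (median -0.013), so the names were not taken as pairs.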

Additional observations from a re-analysis of the deposited data

How the results depend on the processing

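Without a minimum fold, 1079 genes were higher and 1214 lower in iPS cells, against 471 and 383. The other 12 alternatives gave 373 to 533 higher and 320 to 440 lower genes, and no called gene named from the lists or the top 12 turned its direction. Leaving out an iPS array gave 462 to 507 higher and 394 to 440 lower genes. The share of calls that were higher was 55.2%, with 51.6% after subtracting array medians and 59.1% after quantile scaling, which set the median difference of all genes at -0.104 and -0.02. With the replicate block as a random effect 469 and 383 genes were called, and 98 of the 98 named genes kept their call. iPS arrays share no replicate name with the GFP+ array, so no pairs could be formed between them. Fitting only these 4 arrays, with 2 residual degrees of freedom, kept 83 of the 98 and 9 of the 14 higher germline genes. Averaging all probe sets kept 90 and left 28 lower X-linked genes in place of 39. The single GFP+ array limits every result. After removal of the dimmest 25% of genes, 68 of the 98 named genes were tested and all 68 kept their call.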

Other observations

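For 77 of the 383 genes lower in iPS cells the GFP+ array was the highest of all 24, a position that choosing genes by their gap favours. Those named here were chosen after their values were seen. Sall2, a zinc finger transcription factor, stood at 5.77, 5.76 and 5.35 on iPS arrays 1-3, 1-5 and 1-6, against 8.60 in GFP+ cells, with 7.48 on the day 12 SSEA1+ array and 7.59 in MEFs. Greb1, known as an oestrogen-regulated gene, had 4.29 to 4.82 in iPS cells and 7.26 in GFP+ cells, against 4.20 in MEFs. Mogat2, an enzyme of triacylglycerol synthesis, had 5.00 to 5.65 in iPS cells and 8.19 in GFP+ cells. The receptor genes Notch4 and Epha4 differed by -2.31 and -2.28. Trh, the precursor of thyrotropin-releasing hormone, had 9.35 to 10.48 in iPS cells and 11.87 in GFP+ cells.

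For 150 of the 471 higher genes the GFP+ array was the lowest of all 24, which the choice by a gap likewise favours. The genes named here were also chosen after their values were seen. Cpt1a, which controls the entry of fatty acids into mitochondria, stood at 8.86 to 8.97 in iPS cells, against 5.90 in GFP+ cells and 8.21 in MEFs (difference 2.99 ± 0.32 SE). Gab1, a docking protein of receptor kinases, had 11.07 to 11.45 in iPS cells and 8.74 in GFP+ cells, and Hbegf, a ligand of the EGF receptor, 7.98 to 8.35 and 5.69. In these genes the iPS values stood above the MEF mean, which was 9.03 for Gab1 and 7.49 for Hbegf.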
